A study of Mus musculus with 2 samples.

Results

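Laminins are ligands of some of the integrins in the basement membrane, and other integrins bind other partners. On these arrays the epithelial laminin chains Lama3 and Lamb3 were higher in EP4 cKO colon than in Villin-Cre colon. Lamb1, Lamb2, Lamc1 and Lama4, laminin chains of broad use or of vessels, were lower. The epithelial chain Lama5 lay close to the median of all genes. The integrin and laminin genes were chosen by name. The rule took every gene whose symbol begins with Itga or Itgb, without Itgae and the integrin-binding proteins. It also took every gene whose symbol begins with Lama, Lamb or Lamc followed by a digit. Described here are 37 such genes, 27 integrin genes (26 chains and the integrin-like gene Itgbl1) and 10 laminin chains, of 22909 genes named on the arrays, and the rule uses no measured value. RNA of whole colon was compared between Villin-Cre control mice and Villin-Cre; EP4flox/flox mice (EP4 cKO), both C57BL/6 and, by the methods, 8 weeks old. Both genotypes carry Cre driven by the villin promoter, which is active in the intestinal epithelium, so the floxed Ptger4 gene of the prostaglandin E2 receptor EP4 is removed from epithelial cells and not from the stroma or the leukocytes. There was 1 Agilent 1-colour (Cy3) array per genotype, each with RNA combined from 3 pools of colon by the labels. No difference has a replicate check, no p-value can be given, and each value describes these arrays only.

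Integrins are transmembrane receptors made of 1 α chain and 1 β chain, and they tie the cytoskeleton to the extracellular matrix or to other cells. Laminins are secreted trimers of 1 α, 1 β and 1 γ chain that form the sheet of the basement membrane to which epithelium, muscle, endothelium and nerves attach. In gut epithelium, integrin α6β4 holds cells to laminin through hemidesmosomes, integrin αvβ6 activates latent TGF-β, and leukocytes use the β2 and β7 integrins to enter the mucosa and to stay there.

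The signal of each probe is given as normalized intensity, the scanner's processed signal scaled so that the trimmed mean of each array was 2500, and ratios are log2 of EP4 cKO over Villin-Cre. A probe counts as measured on an array where the scanner software marked it well above background. The 37 genes had 59 probes. Villin-Cre colon gave 29 so marked and EP4 cKO colon 35, with 29 in both, 6 in EP4 cKO alone and 0 in Villin-Cre alone. These are 49.2% and 59.3% of the probes, against 45.4% and 51.6% of all gene probes. Of all 56593 gene probes, 4443 were so marked in EP4 cKO alone and 949 in Villin-Cre alone. Where a probe was measured on EP4 cKO only, its Villin-Cre signal was replaced by the lowest measured one there (125) if it was below that, so that its fold is a lower bound. A gene with several probes is represented by the probe with the highest mean log2 signal. The ± beside a log2 ratio is the error that the scanner software assigned to both signals, and it ran from 0.20 to 0.37 over the measured probes. It covers the spots of these hybridizations and not the mice. The targeted gene Ptger4 had signals of 6227 and 5661 at its brighter probe (log2 ratio -0.14) and of 393 and 592 at its dimmer probe (0.59), so the direction of every ratio rests on the labels of the arrays.

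By these rules a value could be given for 25 genes, including 22 that both arrays measured, and 12 were too dim in both genotypes. Of the 25, 2 were more than 2-fold higher in EP4 cKO, against 4.86% of all 14679 genes with a value. There were 4 more than 2-fold lower, against 7.87% of all genes. At 3-fold 1 was higher and 1 lower, against 2.21% and 3.64% of all genes, and at 1.5-fold 6 were higher and 8 lower, against 9.84% and 18.6%. The median log2 ratio was 0.09 for the 25 genes and -0.10 for all genes. Of the 25 genes 13 were above 0, 10 below 0 and 2 at 0. Of all 14679 genes 5329 were above 0, 8434 below 0 and 916 at 0. The genes past 2-fold were Itgax and Lamb3 on the higher side and Lamb2, Lamc1, Itga7 and Lama4 on the lower side. Thus 4 of the 6 were laminin chains, which make up 7 of the 25 genes with a value. The count of higher members was 4 with scaling to the 75th percentile and 5 after loess, where the count of lower members was 4 and 3. Over all genes the split between higher and lower calls was 713 to 1155 as given here, 937 to 907 with the 75th percentile and 1134 to 720 after loess.

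**Figure D1:**
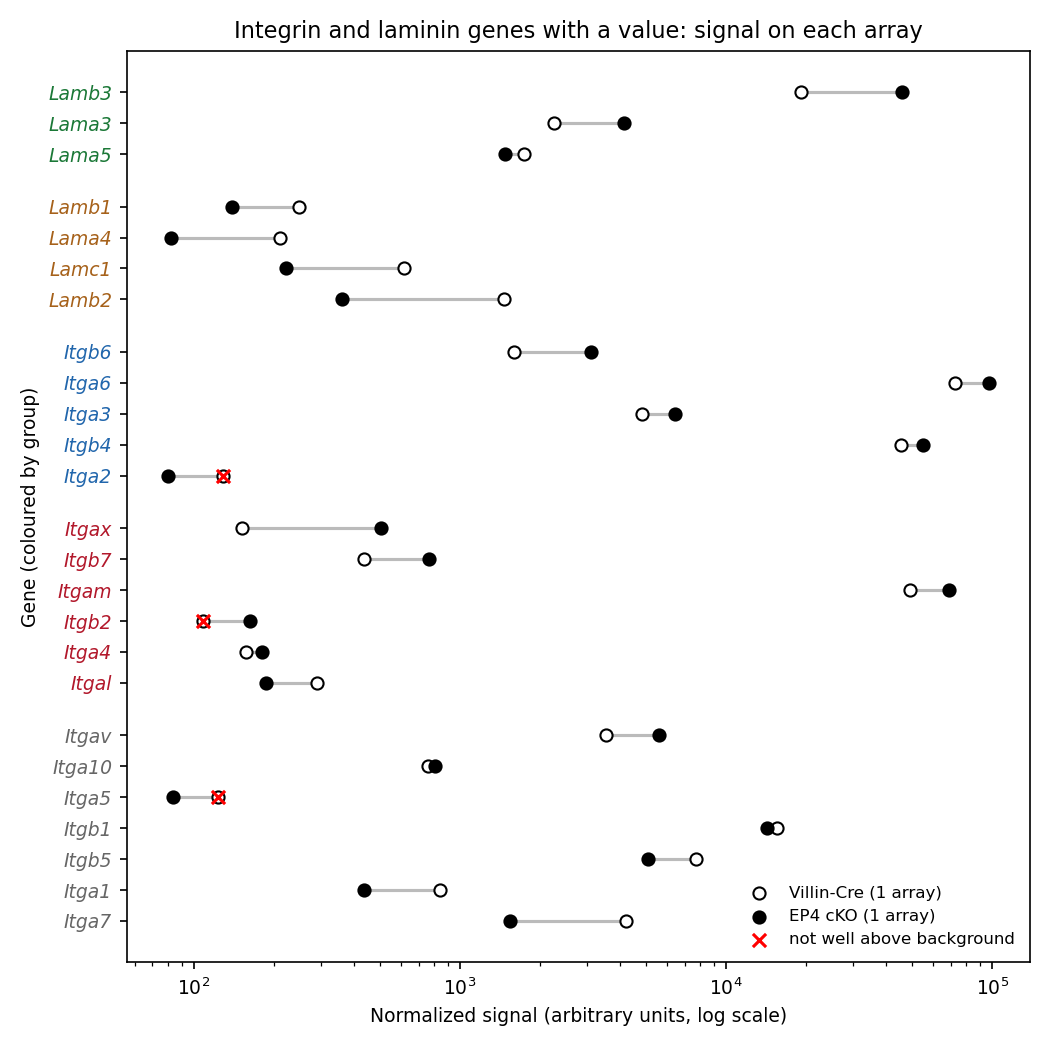
Normalized signal (log axis, arbitrary units) of the 25 integrin and laminin genes with a value, open circles for the Villin-Cre array and filled circles for the EP4 cKO array, with a red cross where the Villin-Cre signal was not well above background. The filled circles of Lamb3 and Lama3 lie to the right of the open ones and those of Lamb1, Lama4, Lamc1 and Lamb2 to the left. Levels of different genes come from different probes and are not comparable.

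Sequence just before the transcription start was searched for only some of the members. It is shown for Lamb3 and Lamb2, the laminin chains with the highest and the lowest ratio among those searched. It is also shown for Itgax, the integrin with the highest ratio. Each run is the 250 bases upstream of the annotated start, 5′ to 3′ on the strand of the gene, from RefSeq on GRCm38.p6. Capitals mark matches, on either strand, to any of the motifs searched, which are the AP-1 site, the STAT site known as GAS, the PU.1 box, the GC box and the TATA box, each spelled out where its matches are described. The Lamb3 window lies at chr1:193301744-193301993, that of Lamb2 at chr9:108479612-108479861 and that of Itgax at chr7:128129300-128129549, all on the plus strand.
Lamb3: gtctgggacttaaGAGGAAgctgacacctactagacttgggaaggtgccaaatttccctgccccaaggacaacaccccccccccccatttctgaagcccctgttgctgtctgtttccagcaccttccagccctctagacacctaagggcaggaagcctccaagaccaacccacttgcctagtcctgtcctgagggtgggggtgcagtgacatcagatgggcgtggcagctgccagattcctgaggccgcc
Lamb2: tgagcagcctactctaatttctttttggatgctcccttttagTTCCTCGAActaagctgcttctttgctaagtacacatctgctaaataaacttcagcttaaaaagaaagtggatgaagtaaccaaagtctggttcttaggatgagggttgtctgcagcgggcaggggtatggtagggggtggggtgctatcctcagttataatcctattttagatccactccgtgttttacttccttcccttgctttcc
Itgax: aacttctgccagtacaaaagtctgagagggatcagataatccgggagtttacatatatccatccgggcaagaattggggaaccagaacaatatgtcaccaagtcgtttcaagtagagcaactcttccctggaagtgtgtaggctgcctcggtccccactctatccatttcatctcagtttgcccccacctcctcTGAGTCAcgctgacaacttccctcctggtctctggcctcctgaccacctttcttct

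The Itgax window holds 1 match to the AP-1 letters TGANTCA, from base -56 to base -50 before the start, and 6.75% of the 32851 windows of the table hold at least 1. None of the other 24 member genes with a searched window had this match, and Lama3 was not among them. The Lamb2 window holds a match to the GAS letters TTCNNNGAA from -208 to -200 whose first letters also match the PU.1 box, and 7.02% of all windows hold a GAS match. Among the members with a searched window, Itga10 was the other gene with one. The Lamb3 window holds a PU.1 box, spelled GAGGAA, from -237 to -232, a motif found in 14 of the 28 windows of these genes and in 23.3% of all windows. A GC box, spelled GGGCGG, was found in 10 of the 28 and in 32.7% of all windows. The letters of the TATA box, searched as TATAAA, were found in 0 of the 28 and in 12.4% of all windows. A second annotated start of Lamb3 has none of these letters in its window. These matches describe the letters of the windows only.

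The α3 and β3 laminin chains, which epithelial cells make and which anchor hemidesmosomes, were higher in EP4 cKO. Lamb3, the β3 chain, had a normalized signal of 19214 in Villin-Cre and 46027 in EP4 cKO at its brighter probe, a log2 ratio of 1.26 ± 0.20 (2.40-fold). A second Lamb3 probe gave 7347 and 14590, a log2 ratio of 0.99, so both probes were higher in EP4 cKO and lay close to 2-fold. Lama3, the α3 chain, had 2267 and 4148, a log2 ratio of 0.87 ± 0.20 (1.83-fold). Its dimmer probe had 318 and 374, a log2 ratio of 0.23, so that the size of the Lama3 difference depends on the probe. The median of both chains was 1.07, and it ran from 0.84 to 1.22 over the other ways of processing. Lama5, the α5 chain of the laminin that lies under most of the gut epithelium, was not higher. Its signals were 1739 and 1474, a log2 ratio of -0.24 ± 0.21, which is close to the median of all genes.

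The other laminin chains, which include the widely used β1, β2 and γ1 chains that also pair with α5 under epithelium, were all lower where they could be measured. Lamb2, the β2 chain, had 1462 in Villin-Cre and 362 in EP4 cKO, a log2 ratio of -2.02 ± 0.21 (4.04-fold lower), the lowest ratio of the whole set. Lamc1, the γ1 chain present in most laminins, had 616 and 222, a log2 ratio of -1.47 ± 0.24 (2.77-fold lower). Lama4, the α4 chain of vessels and fat, had 211 and 82.3, a log2 ratio of -1.36 ± 0.34 (2.56-fold lower). Lamb1, the β1 chain, had 249 and 139, a log2 ratio of -0.84 ± 0.30 (1.79-fold lower), at the 1 of its 3 probes that was measured. The 4 chains had a median of -1.41, which was -0.62 with normexp and quantile normalization and -0.96 with loess, and the signals of Lama4 and Lamb1 lay near the lowest measured signal of their arrays, 125 and 57.8. Lama1, Lama2 and Lamc3 were not well above background in either genotype. After normexp with quantile normalization the ratios were -1.41 for Lamb2, -0.79 for Lamc1, -0.45 for Lama4 and -0.22 for Lamb1, which is within the error of Lamb1, and Lama4 was also within 2-fold after loess (-0.71). In a bulk sample, fewer cells of a type and less RNA per cell cannot be told apart.

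Over all 7 measured laminin chains the median was -0.84, with 2 chains above 0 and 5 below 0. Among all 14679 genes with a value, 5329 were above 0 and 8434 below 0.

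**Figure D2:**
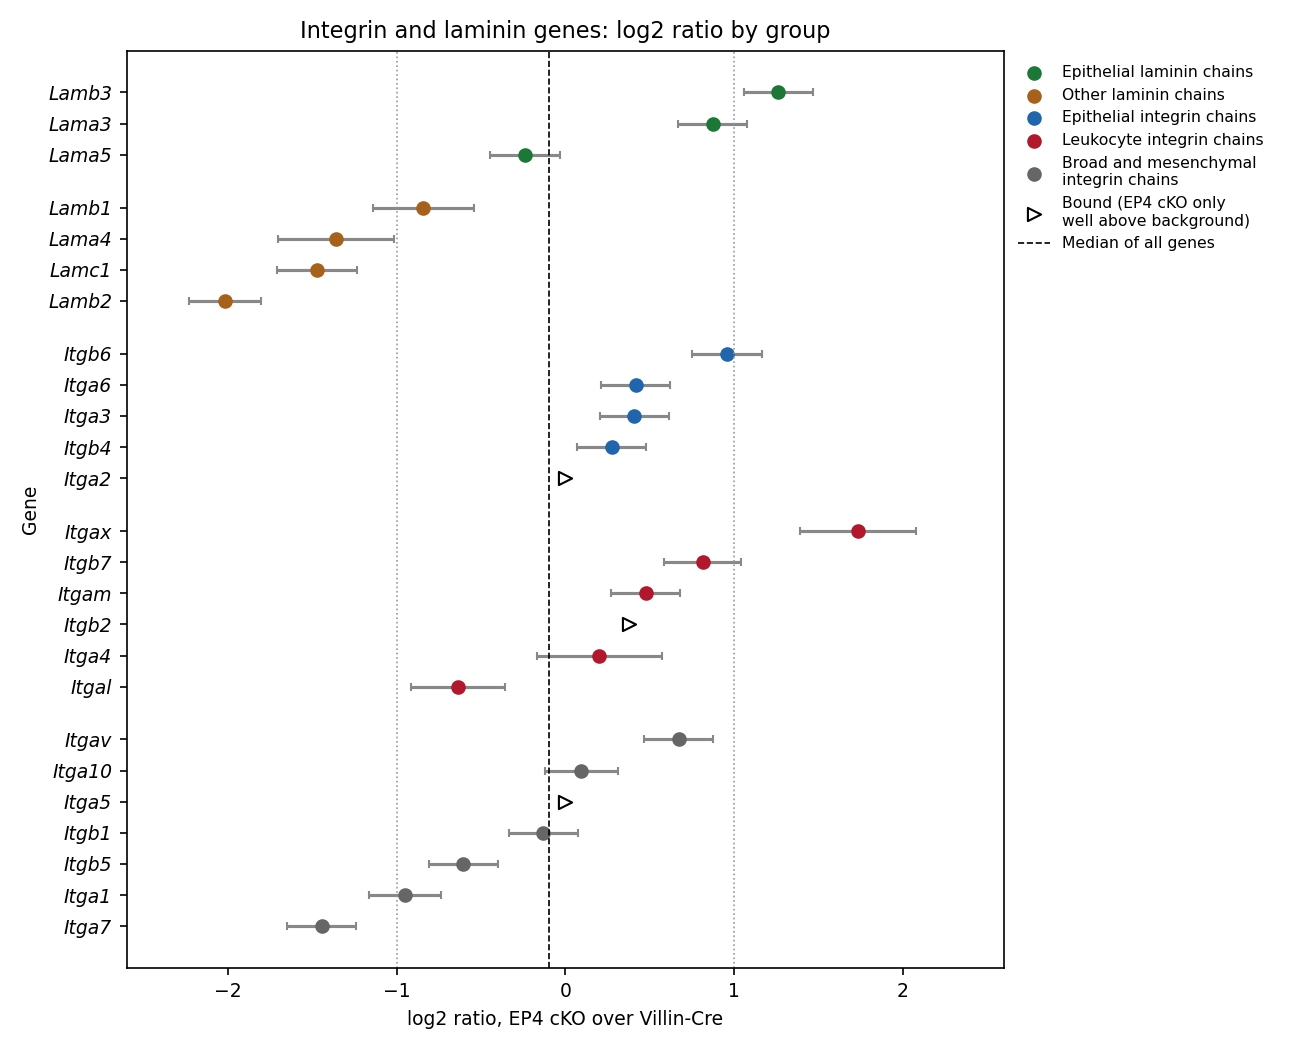
The log2 ratio of EP4 cKO over Villin-Cre for the 25 genes with a value, coloured by group. Bars are the error assigned by the scanner software to the signals, open triangles are lower bounds (at 0 where no fold above 1 could be given), dotted lines mark 2-fold and the dashed line the median of all genes (-0.10). Lama3 and Lamb3 lie at 0.87 and 1.26 and the 4 other measured laminin chains, Lama5 apart, between -2.02 and -0.84.

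Of the 5 integrin chains of epithelium 4 were higher in EP4 cKO, and none was past 2-fold at its brightest probe. Itgb6, the β6 chain that pairs with αv, came closest, with 1603 and 3114, a log2 ratio of 0.96 ± 0.21 (1.94-fold). It was past 2-fold with scaling to the 75th percentile (1.11), and its dimmer probe, measured on EP4 cKO only, was at least 1.19-fold higher. Itga6, the laminin-binding α6 chain, had 72802 and 97094, a log2 ratio of 0.42 ± 0.20. Its other probes gave 26363 and 46628, a log2 ratio of 0.82, and, for a probe of another transcript measured on EP4 cKO only, a fold of at least 2.12, so that the 3 probes had the same direction and differed in size. Itgb4, the hemidesmosome chain that pairs with α6, had 45499 and 54973, a log2 ratio of 0.27 ± 0.20. Itga3, the α3 chain that binds laminin as α3β1, had 4835 and 6415, a log2 ratio of 0.41 ± 0.20, and 0.61 at a dimmer probe. Itga2, a collagen-binding α chain, was at 129 in Villin-Cre, not well above background there, and at 79.8 in EP4 cKO, which allows no fold. Thus the laminin receptor chains Itga6, Itgb4 and Itga3 were between 1.21-fold and 1.33-fold higher at their brightest probes, whereas the laminin chains Lama3 and Lamb3 were 1.83-fold and 2.40-fold higher. The order of Itga6 and Lama3 turned with the mean of all probes of each, where their log2 ratios were 0.77 and 0.55.

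Of the 6 measured leukocyte chains 5 were above 0 and 1, Itgal, was below, against 5329 above 0 and 8434 below 0 among all genes. The 5 include Itgam, whose probes disagreed. Itgax, CD11c of dendritic cells and macrophages, had 152 in Villin-Cre and 505 in EP4 cKO, a log2 ratio of 1.73 ± 0.34 (3.32-fold), the highest ratio of the set. The Villin-Cre signal was near the lowest measured signal of its array, a second Itgax probe was below the detection mark on both arrays, and the ratio was 1.15 after normexp with quantile normalization. Itgb7, the β7 chain of gut-homing and intraepithelial lymphocytes, had 436 and 766, a log2 ratio of 0.81 ± 0.23 (1.76-fold). Its partner Itga4 had 158 and 181, a log2 ratio of 0.20 ± 0.37. Itgb2, the β2 chain shared by the αL, αM and αX integrins, was not well above background in Villin-Cre (109) and had 162 in EP4 cKO, a log2 ratio of at least 0.37. Its partner Itgal, CD11a of lymphocytes, was lower, with 290 and 187, a log2 ratio of -0.64 ± 0.28 (1.56-fold lower). The size of the Itgal difference depended on the processing. Its log2 ratio was -0.28 with loess, about the size of that error. With normexp and quantiles it was -0.13, which is within the error. Itgad and Itgb2l were too dim to measure in both genotypes.

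Itgam, CD11b of myeloid cells, had probes designed to different transcript records. The brighter gave 49347 and 68597, a log2 ratio of 0.48 ± 0.20, and the other was not well above background in Villin-Cre (145) and had 84.1 in EP4 cKO, which allows no fold. Signals of the brighter probe were far above those of the partner chain Itgb2 (109 and 162). Whether the brighter probe reports Itgam was not tested. An alternative added once the data had been seen used the dimmer probe. Itgam was then at 0, and the median of the leukocyte chains was 0.29 rather than 0.42.

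Set side by side, the 6 measured leukocyte chains had a median log2 ratio of 0.42 and a range from -0.64 to 1.73, and the 5 epithelial integrin chains had a median of 0.41 and a range from 0.00 to 0.96. The medians differed by 0.02, which is smaller than the error of a single ratio, and the sign of the difference depended on the processing: it was 0.39 after loess, 0.06 over genes measured on both arrays, -0.07 with no filter on dim probes, -0.20 with all probes of each gene averaged and -0.12 with the dimmer Itgam probe. Of the general leukocyte markers, 9 of 12 had a value, with a median of 0.00, 3 above 0, 4 below 0 and 2 at 0. More than 2-fold higher were 2, and 0 were more than 2-fold lower. The markers with the largest ratios were Cd52 (1498 and 4039, log2 ratio 1.43), Cd3g (208 and 504, 1.28), Ptprc (416 and 813, 0.97) and Csf1r (4874 and 2817, -0.79). Another T cell marker, Cd3e, had 3069 and 2861 (-0.10), and Laptm5 and Cd68 were at -0.58 and -0.09. Their summed signal was 10886 in Villin-Cre and 11776 in EP4 cKO, and the macrophage markers Lyz2 and Adgre1 were not well above background in either genotype. The part of leukocyte number in the Itgax and Itgb7 values was not tested.

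Of the broad, muscle and vascular integrin chains, 7 of 13 had a value, with a median of -0.13, 1 more than 2-fold lower and 0 higher. Itga7, the laminin-binding α chain of muscle, had 4210 and 1548, a log2 ratio of -1.44 ± 0.20 (2.72-fold lower), and stayed more than 2-fold lower under the 7 other ways of processing. Itga1, a collagen-binding chain of muscle and stroma, had 843 and 436, a log2 ratio of -0.95 ± 0.22, and -0.74 at its dimmer probe. Itgb5, a vitronectin-binding chain, had 7720 and 5078, a log2 ratio of -0.60 ± 0.20. Itgav, the α chain that pairs with β5 and β6, was higher, with 3530 and 5625, a log2 ratio of 0.67 ± 0.20 (1.59-fold). Itgb1, the partner of most α chains, had 15582 and 14223, a log2 ratio of -0.13 ± 0.20, whose sign flipped with the 75th percentile (0.03), and a dimmer probe gave 0.01. The probes of Itga10 disagreed, with 756 and 807 (0.09) at the brighter and 329 and 96.0 (-1.78) at the dimmer, and the mean of both was -0.84. Itga5, the fibronectin receptor chain, was at 124 in Villin-Cre, not well above background, and 83.3 in EP4 cKO. Itga2b, Itga8, Itga9, Itga11, Itgb3 and Itgb8, and the integrin-like gene Itgbl1, were below the detection mark on both arrays.

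The cell type markers are given beside these values. All 5 fibroblast markers with a value were more than 2-fold lower, 3 of them by bounds because EP4 cKO was not well above background. Their summed signal was 12911 in Villin-Cre and, with those 3 at the lowest measured signal of the array, at most 395 in EP4 cKO. Dcn had 6006 and 110, and Col1a2 had 3613 and 111. Smooth muscle markers had no common direction. Of the 5 with a value, Cnn1 had 479 and 72.3 (log2 ratio -2.73), whereas Acta2 had 18006 and 27719 (0.62), Actg2 had 7308 and 12072 (0.72) and Tagln had 4224 and 5490 (0.38), and their summed signal was 30048 and 45462. Endothelial markers had 2 genes with a value, Vwf (873 and 914) and Pecam1 (172 and 152), with a median of -0.05, and the 3 enteric glia markers were too dim to measure in both genotypes. Epithelial markers had a median of 0.37 over 8 genes, 7 of them above 0 and 1 more than 2-fold higher, with a summed signal of 1.88e+06 and 2.51e+06. This median lies close to that of the 5 epithelial integrin chains, 0.41. Epcam had 36716 and 54066 (0.56) and Krt20, a keratin of surface epithelium, had 146575 and 510711 (1.80), whereas Krt18 (0.10), Krt8 (0.05) and Cdh1 (-0.10) were near 0. The part of fibroblast, smooth muscle and epithelial RNA in the laminin and integrin values was not tested.

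Other components of the basement membrane lay on both sides of 0. In this list 12 of 18 genes had a value with a median of -0.19, and 2 were above 2-fold and 3 below it. Sparc, a collagen-binding matrix protein, had 13709 and 404 (log2 ratio -5.08), Fbln1 had 243 and 114 (-1.09) and Smoc2 had 15004 and 8311 (-0.85). Nid1, which links laminin to collagen IV, had 472 in Villin-Cre and was not well above background in EP4 cKO, at least 8.16-fold lower. On the other side, Tinagl1, a basement membrane protein, had 1217 and 3296 (1.44), and Pxdn, the enzyme that crosslinks collagen IV, was at least 2.07-fold higher. The collagen IV chains Col4a1 and Col4a2 were not well above background in Villin-Cre and allowed no fold.

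The partners of α6β4 in hemidesmosomes were within 2-fold in 4 of 4 genes. Plec, plectin, which ties β4 to keratin filaments, had 47592 and 81652 (0.78), Col17a1 had 1072 and 645 (-0.73), Cd151 had 43629 and 34714 (-0.33) and Dst had 3260 and 3017 (-0.11). Integrin adaptors and kinases had a value in 20 of 23 genes, a median of -0.08, 0 genes more than 2-fold higher and 2 lower. The lower ones were Tns2 (938 and 433, -1.12) and Parvb, which had 584 in Villin-Cre and was not well above background in EP4 cKO. Actn4, an actin crosslinker, had 50898 and 96503 (0.92), Tns1 had 1345 and 1024 (-0.39) and Ilk had 4775 and 3771 (-0.34).

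Few ligands of the leukocyte integrins were measured. Icam1, Icam4, Vcam1, Madcam1, Jam2 and Jam3 were not well above background in either genotype, Icam2 allowed no fold, and F11r, the junctional ligand of αLβ2, had 51854 and 66905 (0.37) and Thy1 1505 and 1836 (0.29). Of 12 ligands of the RGD and matrix receptors with a matched probe 6 had a value, with a median of -0.20. Fn1, fibronectin, had 1071 and 2119 (0.98) and Ccn1, a matrix-associated ligand, had 772 and 224 (-1.78), with Thbs1 (424 and 358, -0.24) and Mfge8 (25700 and 23044, -0.16) between them. Fbn1, fibrillin, had 380 in Villin-Cre and was not well above background in EP4 cKO. Of 8 genes of other laminin receptors 6 had a value and 0 passed 2-fold, with a median of -0.04. Sgcb had 206 and 390 (0.92), Sntb1 369 and 214 (-0.78), Utrn 10497 and 7191 (-0.55) and Dmd 436 and 532 (0.29).

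**Figure D3:**
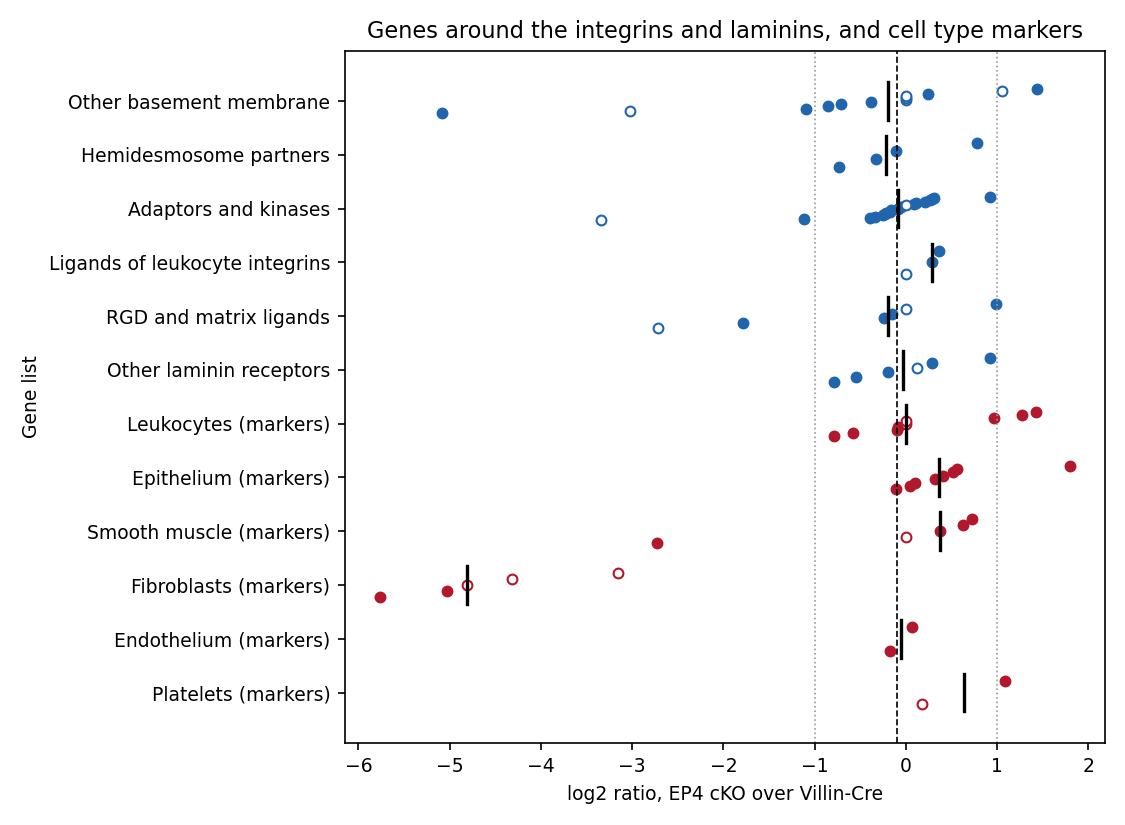
The log2 ratio of EP4 cKO over Villin-Cre for genes of the pathway lists (blue) and of the cell type marker lists (red) that had a value. Filled points were measured on both arrays and open points are bounds, black bars are list medians, dotted lines mark 2-fold and the dashed line the median of all genes. The median of the fibroblast markers (-4.81) lies to the left of the medians of the other lists (-0.22 to 0.63), while Sparc (-5.08) and Parvb (-3.34) of other lists lie within the range of the fibroblast genes.

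**Figure D4:**
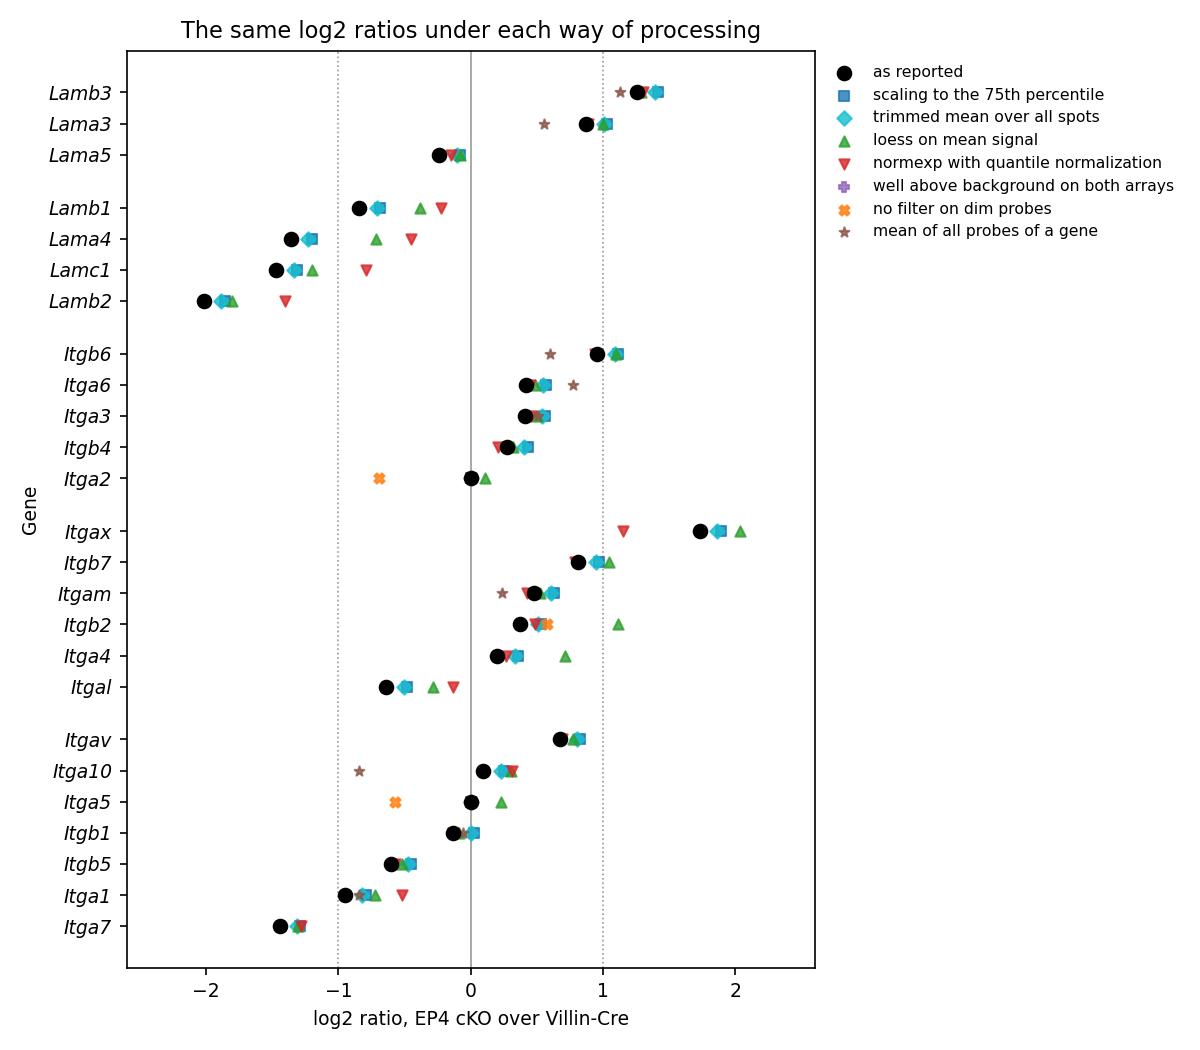
The log2 ratio of each integrin and laminin gene with a value, as reported (black) and under 7 other ways of processing the arrays, or 6 for the 3 genes not measured on both. Of the 23 genes with a direction, 21 kept it, with Itgb1 and Itga10 as the exceptions, and Itga2 and Itga5, at 0 as reported, lie on both sides of 0 among the alternatives. After normexp with quantile normalization the ratios of Lamb1, Lama4 and Lamc1 lie nearer to 0, at -0.22, -0.45 and -0.79.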

How the data were processed

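RNA of whole colon was measured on 2 Agilent 1-colour arrays, 1 per genotype, grouped by the genotype in the labels. The authors deposited the scanner intensities (Feature Extraction 12.0.3.1 per the file headers, 11.5.1.1 in the submitters' processing notes), processed by the software (background subtracted, detrended) and not normalized between arrays. The flags for probe type, outliers, saturation and signal well above background, deposited as other values, were used as they are. Outlier spots on either array were left out (none of the members), spots of a probe were averaged, and each array was brought to a mean of 2500, taken without the 2% of probes at each end, as in the methods of the study, with factors of 3.45 (Villin-Cre) and 2.68 (EP4 cKO). No spot was saturated. Over 289 probes with at least 5 spots measured on both arrays the median SD of the log2 ratio was 0.035.

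Probes were named through their RefSeq accession (32989 of 56593 matched, GRCm38.p6 table). The array design was annotated on an older build, so coordinates are given only for RefSeq promoter windows. All members are named, with up to 4 genes of each other list with the largest ratios measured on both arrays, and further genes chosen after their values were seen. The rule found 38 genes, of which 1 is not reported here. The members and lists were chosen with earlier results of these data known. No test was made, since a genotype had 1 array, and the number of arrays limits the precision. Alternatives were the 75th percentile, a trimmed mean over all spots, loess (span 0.3), normexp (offset 50) on the median signal with quantile normalization, both arrays measured, no filter, the mean of all probes, and thresholds of 3-fold and 1.5-fold. The mean signal planned for normexp was not used here. The steps were tested on simulated data. The tools were limma 3.58.1 in R 4.3.3, and in Python 3.11.15 matplotlib 3.10.9 for figures, statsmodels 0.14.6 for loess, pandas 2.3.3 and numpy 2.4.6.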

Additional observations from a re-analysis of the deposited data

How the results depend on the processing

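Of the 25 integrin and laminin genes with a value, 19 stayed on the same side of the 2-fold threshold under all other ways of processing (7, or 6 for the 3 genes not measured on both arrays). Of the 23 with a direction, 21 kept it. The exceptions in sign were Itgb1 and Itga10, and those in the 2-fold call were Itgb6, Lama3, Itgb2, Itgb7, Lama4 and Lamc1. The number of members more than 2-fold higher was 2 as reported, 4 with the 75th percentile, 4 with the trimmed mean over all spots, 5 after loess, 1 at a threshold of 3-fold and 6 at 1.5-fold. The number more than 2-fold lower was 4 as reported, 2 after normexp with quantile normalization, 11 with dim probes kept, 1 at 3-fold and 8 at 1.5-fold. Over all genes, the higher and lower counts (713 and 1155) were 602 and 392 after normexp, 1169 and 7213 with dim probes kept, and 517 and 798 over genes measured on both arrays. The 75th percentile raised each ratio measured on both arrays by 0.16 and the trimmed mean over all spots by 0.13. For a gene whose only measured probe was marked on both arrays, the filter settings and the mean of probes leave the ratio unchanged. The median of the leukocyte chains was 0.88 after loess. Its difference from the epithelial chains (0.02) was 0.39 after loess and -0.20 with the mean of all probes. The median of all laminin chains (-0.84) was -0.38 after loess and -0.22 after normexp. The cause was not tested, except that the thresholds and the dim probes change which genes can count. No paired analysis was possible because each genotype has 1 array, and no sample could be left out. Probes near background limit what can be seen, since 24 of 59 member probes were not well above it on either array.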

Other observations

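Itgae, the αE chain (CD103) that pairs with β7 and binds E-cadherin on intraepithelial lymphocytes, lies outside the set by the rule of choice. Its signal was 159 in Villin-Cre, not well above background, and 523 in EP4 cKO, at least 3.30-fold higher, beside 436 and 766 for its partner Itgb7. Of the integrin-binding proteins, Itgb1bp1 had 1192 and 1188 (log2 ratio -0.01), Itgb3bp had 3599 and 2664 (-0.43) and Itgb1bp2 was too dim to measure in both genotypes. Of the platelet markers, Pf4 had 847 and 1800 (log2 ratio 1.09), while the platelet integrin chains Itga2b and Itgb3 were too dim to measure.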
